A study of Homo sapiens with 20 samples.

Results

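The D-type cyclins (CCND1, CCND2 and CCND3), their kinases CDK4 and CDK6, and the 3 pocket proteins of the retinoblastoma family (RB1, RBL1 and RBL2) were described at the level of RNA after knockdown of HUWE1 in HEK293T cells. These 8 genes were taken by symbol out of the 45372 gene symbols that both expression tables hold, and all 8 passed the filter on low values in both tables. They were chosen by their role in G1 and with the comparisons of HUWE1 siRNA against control in view. Their differences from control in sets 1, 2 and 3 are therefore given as a description. Which of them passed the threshold is stated beside the share of all genes that did, and nothing is read from it.

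HEK293T cells descend from human embryonic kidney and express the large T antigen of SV40, a viral protein that binds the RB family. HUWE1 is a very large ubiquitin ligase of the HECT class, and the study followed the transcriptional response to its knockdown by small interfering RNA (siRNA). There were 5 groups of 4 libraries, which the labels call biological replicates: non-targeting siRNA and HUWE1 siRNA without a set number, called set 1 here, HUWE1 siRNA set 2, HUWE1 siRNA set 3, and 1 non-targeting group that serves sets 2 and 3. The sources used here do not give what sets the 3 HUWE1 groups apart, the siRNA dose or the time after transfection. No group carries a further treatment or engineered allele by its labels, and all come from 1 cell line. The protocol text names siRNA targets other than HUWE1, which no sample description does. Values are TPM, a measure of transcript abundance scaled for transcript length and library total, so genes of 1 library can be set side by side. Set 1 and its controls are in 1 table and the other 3 groups in a second, normalized separately.

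D-type cyclins are made in response to growth signals and activate CDK4 and CDK6 in G1. The kinases phosphorylate RB1 and its relatives p107 (RBL1) and p130 (RBL2), which otherwise hold E2F transcription factors or, within the DREAM complex, repress genes of the cell cycle. Once the pocket proteins are phosphorylated, E2F factors turn on cyclin E and the genes of DNA replication. In cells with large T antigen the viral protein occupies pocket proteins, so that these cells depend less on D-type cyclins than others.

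Windows of 250 bases upstream of a transcription start were found in the RefSeq promoter table (GRCh38.p14) for 6 of the 8 genes, 10 windows in all. The windows of CDK4 and RBL1 are shown because they hold matches that are infrequent among promoters, and because CDK4 was the only lower gene in set 1 and RBL1 the only higher one in set 3 among the 8 at the threshold used below. In the first, capitals mark the E-box letters CACGTG, which MYC with MAX and related factors bind. In the second, capitals mark the E2F motifs TTTCGCGC and TTTGGCGC. Each is read 5′ to 3′ on the minus strand and ends 1 base before the start.
CDK4, chr12:57752311-57752560: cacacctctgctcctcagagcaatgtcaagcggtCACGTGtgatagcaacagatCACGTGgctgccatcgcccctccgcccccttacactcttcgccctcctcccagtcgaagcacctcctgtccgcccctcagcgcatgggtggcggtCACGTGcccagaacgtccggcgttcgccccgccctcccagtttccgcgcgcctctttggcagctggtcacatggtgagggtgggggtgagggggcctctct
RBL1, chr20:37095998-37096247: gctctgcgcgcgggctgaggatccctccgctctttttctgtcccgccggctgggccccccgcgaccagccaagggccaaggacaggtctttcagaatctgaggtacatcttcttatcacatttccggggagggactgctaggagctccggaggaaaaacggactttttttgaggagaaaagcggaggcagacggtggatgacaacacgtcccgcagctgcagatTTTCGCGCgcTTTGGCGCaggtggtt

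The CDK4 window holds 3 E-boxes, beginning 216, 196 and 101 bases before the start, and 65.6% of its bases are G or C. An E-box was present in 6.34% of 35116 RefSeq windows of the same length. The RBL1 window holds both forms of the E2F motif, from base -26 to -19 and from base -16 to -9, and an E2F motif was present in 0.968% of windows. With both strands searched, none of the other 8 windows held an E-box or an E2F motif. The 1 RB1 window (chr13:48476200-48476449) precedes a start inside the gene and is not the promoter at its annotated beginning. Of the windows found, only that of RBL1 lies wholly outside the annotated bounds of its gene. The printed CDK4 window also precedes a start inside the annotated bounds (57747727 to 57756013). The GC box GGGCGG, present in 42.6% of windows, was found in windows of CCND3, CDK4 and CDK6. The CHR letters TTTGAA or TTCGAA (14.3% of windows), the TCF/LEF letters CTTTGATC or CTTTGAAC (1.21%, the second of which contains the first CHR form), the CRE letters TGACGTCA or TAACGTCA (1.94%) and the TATA box TATAAA (10.7%) were in none of the 10. A match of letters does not show that a factor was bound.

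HUWE1 itself was below all controls of the same table in each knockdown library. Its mean fell from 157.2 to 85.0 TPM in set 1, and from 163.3 TPM in the shared controls to 94.6 in set 2 and 84.8 in set 3 (n = 4 each). Each library's TPM sums to the same total, so sequencing depth is unknown. Mitochondrially encoded transcripts took 24.3% to 26.2% of TPM in the first table. In the second they took 16.6% to 18.3% in the shared controls, 16.3% to 17.5% in set 2 and 15.5% to 16.4% in set 3, every library of which was below every control. All 8 epithelial and neuronal genes listed for HEK293T had a mean of 1 TPM or more in every group, with a summed level of 1221 to 1295 TPM in the set 1 controls, 1125 to 1160 in HUWE1 set 1, 1315 to 1612 in the shared controls, 1382 to 1636 in set 2 and 1553 to 1698 in set 3. In set 1, 5 of these 8 were called lower and 2 higher, beside 17.9% and 12.3% of all genes, with NEFM at a log2 fold change of -0.60. In set 3, STMN1 was higher (0.41) and NEFL (-0.24) and NEFM (-0.36) lower, where 7.45% of all genes were called higher and 4.15% lower. The 8 mature kidney markers summed to 4.94 to 7.97 TPM, mostly LRP2, the 8 blood markers to 5.72 to 11.8 TPM, with HBB at 0 in all libraries, and the 8 fibroblast markers to 11.8 to 32.4 TPM. The fibroblast sum was 25.4 to 27.4 TPM in the set 1 controls and 29.9 to 32.4 TPM in HUWE1 set 1. The part of these lists in the results was not tested, and in bulk RNA a change in the number of cells of a type and a change in RNA per cell cannot be told apart. The second table's control libraries of replicates 1 and 4 stood farthest apart on the first component of variation within groups, which held 39.6% of that variation, with scores of 24.7 and -25.0. Values of RB1, RBL1 and the pathway lists in set 3 are given without them below. Without both, the log2 fold change of CCND3 was -0.07 in set 2 and 0.02 in set 3, and that of RBL1 in set 2 was 0.13, none called.

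Levels of the 8 genes differed far more between genes than between groups. CDK4 led in all 5 groups, with a mean of 215.3 to 246.0 TPM, at the 96.5th to 97.5th percentile of genes with a mean of 1 TPM or more. RBL2 came next in every group, at 53.7 to 58.9 TPM, and its libraries did not overlap those of the gene below it. CCND2, RBL1 and CDK6 followed, and several neighbours in this order overlapped: CCND2 and RBL1 in all groups where they stood side by side, and CDK6 and RBL1 in the shared controls and set 2. RB1, CCND3 and CCND1 were the 3 lowest genes in all 5 groups. CCND1 was last at 9.59 TPM in the set 1 controls, 14.3 in HUWE1 set 1, 17.5 in the shared controls and 15.5 in set 2, and stood just above CCND3 in set 3, at 18.9 TPM, with overlapping ranges.

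**Figure D1:**
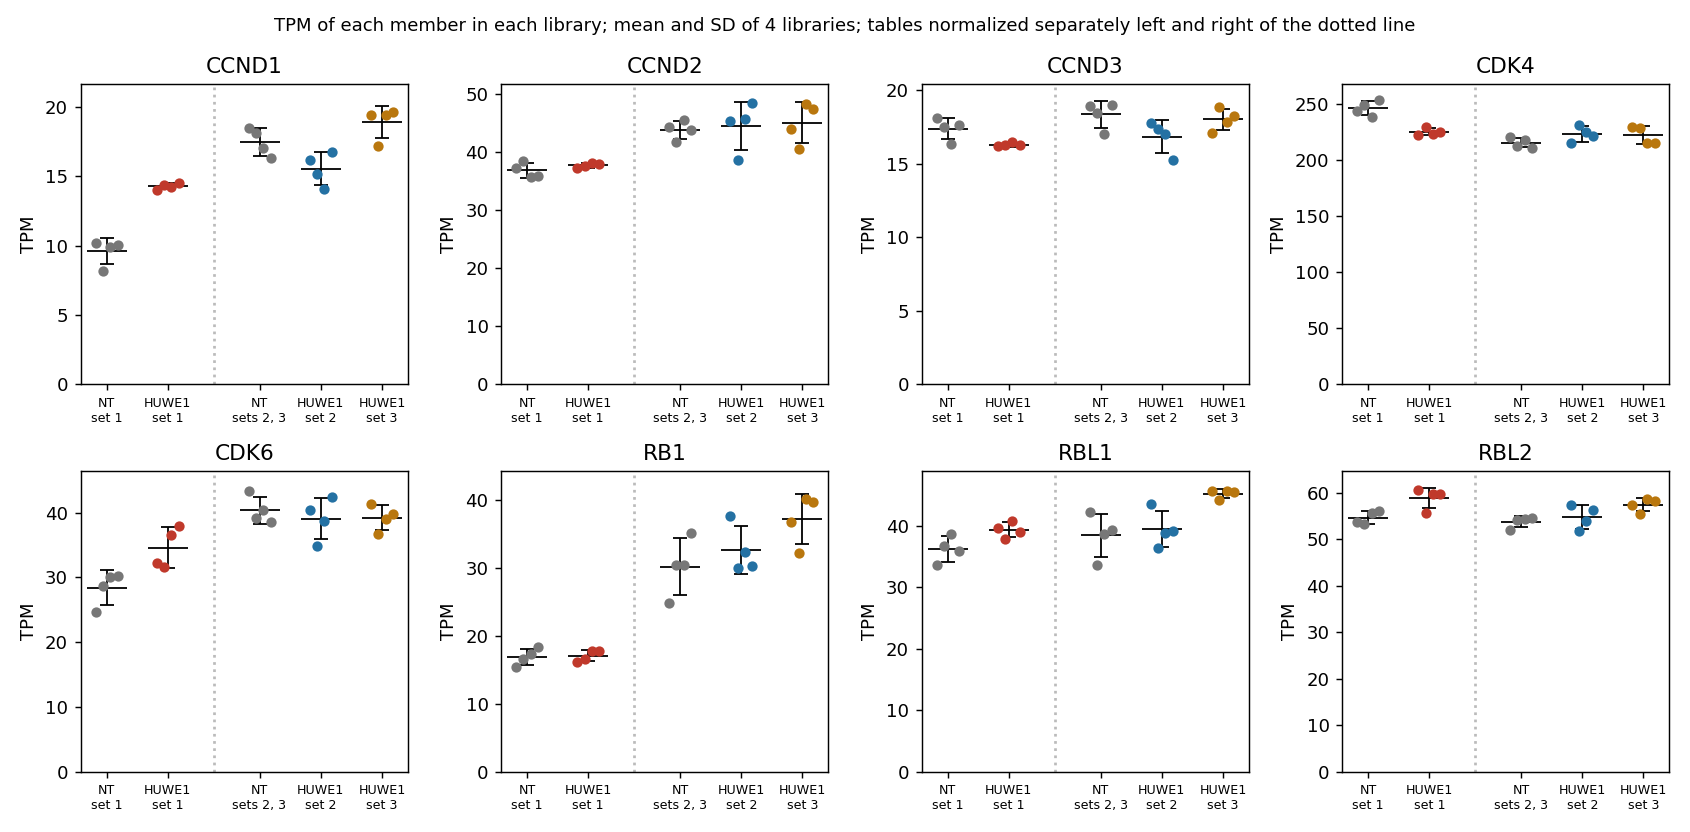
TPM (y axis) of each gene in each of the 20 libraries, by group (x axis). Points are libraries, bars the mean and SD of 4, and the dotted line separates the tables, which were normalized separately. CCND1 in set 1 sits at 14.0 to 14.5 TPM in all HUWE1 libraries and at 8.20 to 10.2 in the controls, and RBL1 in set 3 at 44.1 to 45.6 against 33.6 to 42.1.

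Differences between groups were tested with limma on log2(TPM + 1) over all genes, and calls were made where the p adjusted by Benjamini-Hochberg was under 0.05. In set 1, 3 of the 8 genes were called higher (CCND1, CDK6, RBL2) and 1 lower (CDK4), where 12.3% of 16057 genes were called higher and 17.9% lower. In set 2, 0 of 8 were called, against 0% of 15860 genes higher and 0.0126% lower; at an unadjusted p under 0.05 there was 1 of the 8 and 1401 of all genes. In set 3, 1 of 8 was called higher (RBL1) and 0 lower, where 7.45% of genes were higher and 4.15% lower. The median log2 fold change of the 8 was 0.07 in set 1, 0.02 in set 2 and 0.07 in set 3, beside -0.01, 0.00 and 0.01 over all genes tested. Sets 2 and 3 share their controls, and no gene of the 8 reached a log2 fold change of 1 in any set. Of all called genes, the share that was higher depended on the scaling: 40.8% in set 1 as deposited and 50.8% after quantile normalization, and 64.2% in set 3 as deposited and 48.1% after median-of-ratios scaling.

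**Figure D2:**
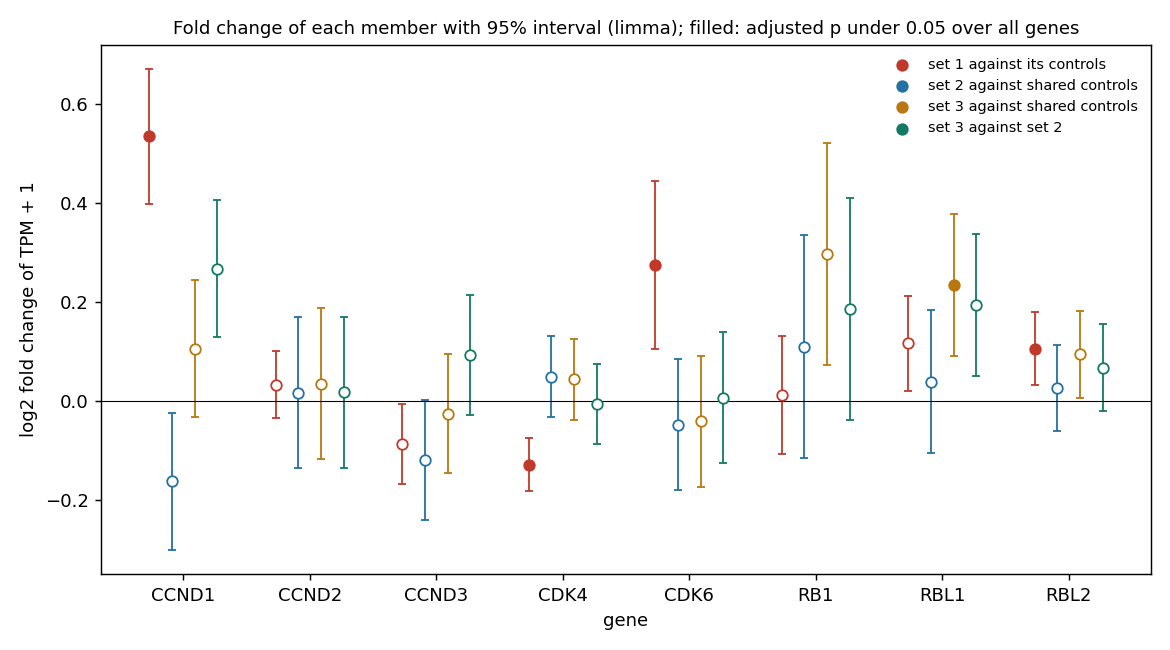
Log2 fold change of TPM + 1 (y axis) for each gene (x axis) in 4 comparisons, with the 95% interval from limma. Filled points have an adjusted p under 0.05 over all genes. CCND1 in set 1 is the highest point at 0.54, and the intervals of CCND2 span 0 in all 4 comparisons.

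Of the D-type cyclins, CCND1 differed most, and only in set 1 was it called. CCND1 encodes cyclin D1 (GRCh38, chromosome 11, 69641087 to 69654474, plus strand). It was at 10.2, 8.20, 9.92 and 10.04 TPM in the set 1 controls and at 14.0, 14.4, 14.3 and 14.5 TPM in the HUWE1 libraries. The groups did not overlap, and the log2 fold change was 0.54 ± 0.061 (SE). In the second table its controls were at 18.5, 18.1, 17.0 and 16.3 TPM, set 2 at 16.2, 15.2, 14.1 and 16.8, and set 3 at 19.4, 17.2, 19.4 and 19.6. All but 1 of the set 2 libraries were below every control and all but 1 of the set 3 libraries above, and the log2 fold changes were -0.16 ± 0.064 and 0.11 ± 0.064 (SE), neither called. The control level in the second table was above the HUWE1 level of set 1, but the tables were normalized apart and this is not a comparison.

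CCND2, which encodes cyclin D2 (chromosome 12, 4273772 to 4305350, plus strand), was the most abundant D-type cyclin transcript, and in sets 1 and 2 its fold change was the nearest to 0 of the 3. Set 1 controls held 37.3, 38.5, 35.6 and 35.9 TPM and HUWE1 libraries 37.2, 37.5, 38.1 and 37.9. In the second table the controls were at 44.2, 41.8, 45.4 and 43.8 TPM, set 2 at 45.3, 38.6, 45.6 and 48.4, and set 3 at 43.9, 40.5, 48.2 and 47.4. The groups overlapped in each set, with log2 fold changes of 0.03 ± 0.030, 0.02 ± 0.070 and 0.04 ± 0.070 (SE), none called. The replicate 2 library was the lowest of the group in the shared controls and in both HUWE1 sets.

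CCND3, which encodes cyclin D3 (chromosome 6, 41934933 to 42050357, minus strand), was slightly lower on average in every HUWE1 group, and no set called it. It was at 18.1, 17.5, 16.4 and 17.6 TPM in the set 1 controls and at 16.2, 16.2, 16.5 and 16.2 in HUWE1 set 1, where 3 of 4 libraries were below all controls. The shared controls held 18.9, 18.4, 17.0 and 19.0 TPM, set 2 held 17.8, 17.3, 17.0 and 15.2, and set 3 held 17.1, 18.8, 17.9 and 18.2. The log2 fold changes were -0.09 ± 0.036, -0.12 ± 0.056 and -0.02 ± 0.056 (SE) in sets 1, 2 and 3. Without control replicate 3, the lowest, set 1 was called at -0.11.

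The makeup of the D-type cyclin pool was set against its size. Summed over the 3 genes, D-type cyclin RNA was 63.8 ± 1.49 TPM in the set 1 controls and 68.3 ± 0.636 in HUWE1 set 1, and 79.6 ± 1.42, 76.8 ± 4.12 and 81.9 ± 4.31 TPM in the shared controls, set 2 and set 3 (SD, n = 4). CCND1 made up 15.0% ± 1.52 of that sum in the set 1 controls and 20.9% ± 0.217 in HUWE1 set 1, and the libraries of the groups did not overlap. The shares of CCND2 and CCND3 were lower in set 1, from 57.7% to 55.2% and from 27.2% to 23.9%, also without overlap. In the shared controls, set 2 and set 3 CCND1 made up 21.96% ± 1.16, 20.2% ± 1.32 and 23.1% ± 0.758 (SD, n = 4), overlapping the controls in both sets.

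**Figure D3:**
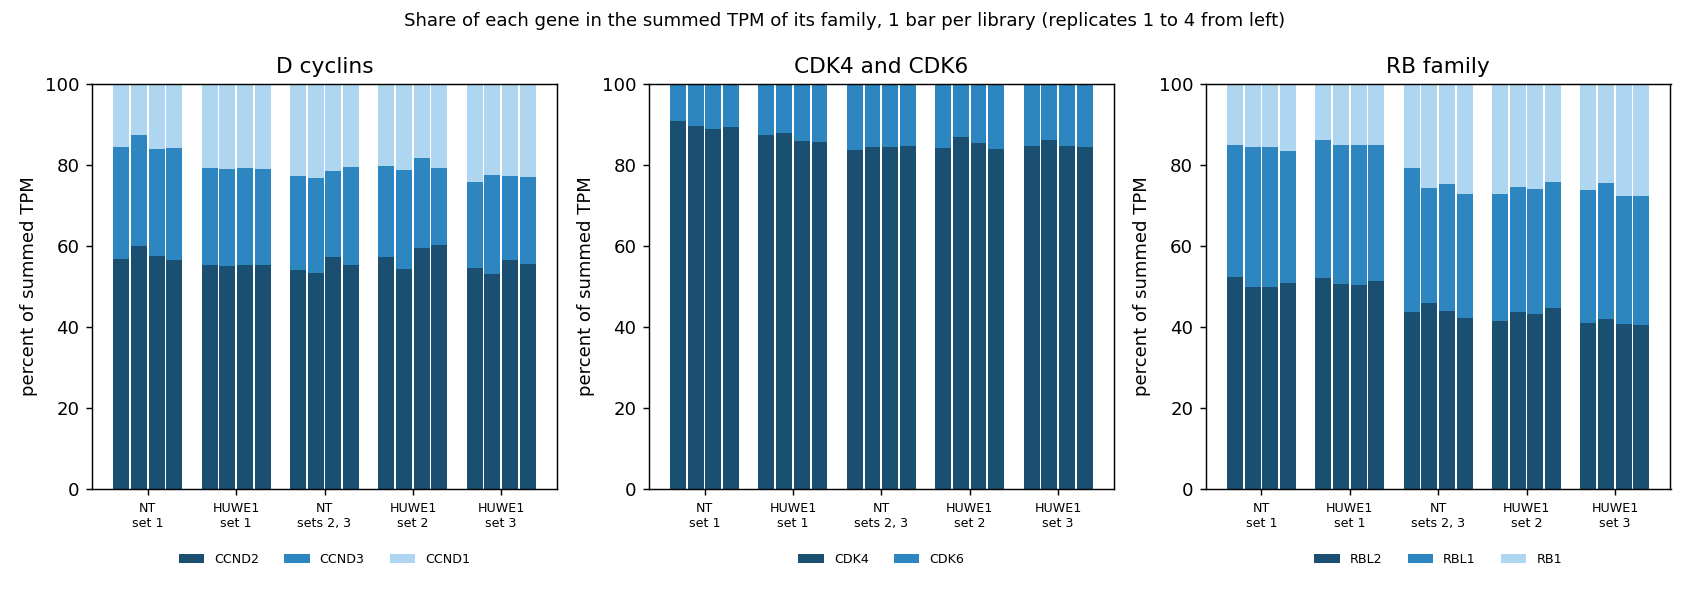
Percent of the summed TPM of each family (y axis) held by each gene, 1 bar per library, by group (x axis). In set 1 the CCND1 part of the D-type cyclins goes from 15.0% to 20.9% on average and the CDK6 part of the 2 kinases from 10.4% to 13.3%, while in the second table both HUWE1 groups overlap the controls in both.

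The kinases moved in opposite directions in set 1 and little in the other sets. CDK4, on chromosome 12 (57747727 to 57756013, minus strand), was at 243.6, 248.7, 238.4 and 253.1 TPM in the set 1 controls and at 222.6, 229.4, 223.1 and 224.6 in the HUWE1 libraries. Every HUWE1 library was below every control, with a log2 fold change of -0.13 ± 0.024 (SE). In the second table it was at 220.2, 212.8, 217.4 and 210.9 TPM in controls, 214.9, 231.1, 225.2 and 220.9 in set 2, and 229.3, 228.8, 215.3 and 215.5 in set 3. These overlapped, with log2 fold changes of 0.05 ± 0.037 and 0.04 ± 0.037 (SE).

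CDK6, the second D-cyclin-dependent kinase (chromosome 7, 92604921 to 92836594, minus strand), was at 24.6, 28.7, 30.1 and 30.3 TPM in the set 1 controls and at 32.2, 31.7, 36.6 and 38.0 in HUWE1 set 1. The groups did not overlap, and the log2 fold change was 0.28 ± 0.076 (SE). It was no longer called without HUWE1 set 1 replicate 3 (0.25) or replicate 4 (0.23), the highest libraries, or with no filter on low values. In the second table its controls were at 43.3, 39.1, 40.5 and 38.6 TPM, set 2 at 40.4, 34.9, 38.7 and 42.4, and set 3 at 41.4, 36.8, 39.0 and 39.7. Here the ranges overlapped and the log2 fold changes were -0.05 ± 0.061 and -0.04 ± 0.061 (SE). CDK6 made up 10.4% ± 0.867 of the summed TPM of both kinases in the set 1 controls and 13.3% ± 1.13 in HUWE1 set 1, without overlap, and 15.8% ± 0.441, 14.9% ± 1.35 and 15.0% ± 0.785 in the shared controls, set 2 and set 3 (SD, n = 4). The ratio of CDK4 to CDK6 was 8.71 ± 0.854 in the set 1 controls and 6.54 ± 0.642 in HUWE1 set 1, and between 5.34 and 5.74 on average in the second table.

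RB1, the founding pocket protein, was alike in both groups of set 1 and highest in set 3 of the second table. The gene lies on chromosome 13 (48303726 to 48599436, plus strand). It was at 15.5, 16.6, 17.4 and 18.3 TPM in the set 1 controls and at 16.2, 16.6, 17.8 and 17.7 in HUWE1 set 1, with a log2 fold change of 0.01 ± 0.053 (SE). The shared controls held 24.9, 30.4, 30.5 and 35.1 TPM, set 2 held 37.7, 30.0, 32.4 and 30.4, and set 3 held 36.7, 32.3, 40.2 and 39.8. Of the set 3 libraries 3 were above every control, and the highest control, replicate 4, was above the lowest set 3 library. The log2 fold change was 0.11 ± 0.103 in set 2 and 0.30 ± 0.103 in set 3 (SE), neither called. The set 2 value was 0.02 without control replicate 1, 0.18 without control replicate 4 and 0.04 without HUWE1 set 2 replicate 1.

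The RB1 value of set 3 moved in opposite directions when 1 or the other of 2 control libraries was left out. Replicates 1 and 4 of the shared controls, the lowest and the highest in RB1, were also at the ends of the within-group component described above. Without replicate 4 the set 3 log2 fold change of RB1 was 0.37 and the gene was called, without replicate 1 it was 0.21, and without both it was 0.28, the last 2 not called. Deviations of RB1 from group means had a Pearson's r of -0.87 with this component over the second table. For the other genes described here r ran from -0.42 to 0.59. The part of this component in the RB1 difference was otherwise not tested.

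**Figure D4:**
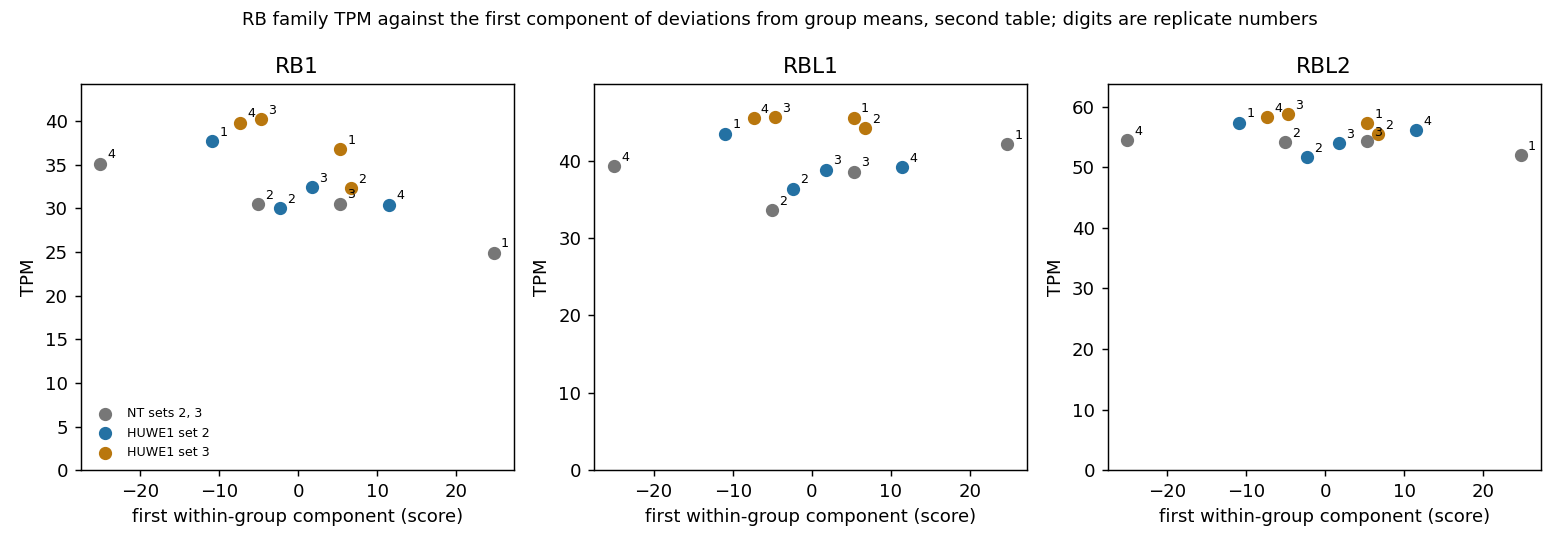
TPM of RB1, RBL1 and RBL2 (y axis) against the score of each library of the second table on the first component of deviations from group means (x axis, no unit). Digits are replicate numbers. The control libraries at scores of 24.7 and -25.0 hold 24.9 and 35.1 TPM of RB1, and the set 3 libraries of RBL1 lie above all other libraries whatever their score.

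RBL1, which encodes p107 and is itself a gene that E2F factors regulate, lies on chromosome 20 (36996349 to 37095995, minus strand). Its set 1 controls were at 33.5, 36.7, 38.6 and 35.9 TPM and the HUWE1 libraries at 39.6, 37.9, 40.8 and 38.9, which overlapped, with a log2 fold change of 0.12 ± 0.043 (SE), not called as deposited but called after median-of-ratios scaling or quantile normalization (0.13 each) and without control replicate 3 (0.15). The shared controls were at 42.1, 33.6, 38.6 and 39.3 TPM, set 2 at 43.5, 36.4, 38.8 and 39.1, and set 3 at 45.6, 44.1, 45.6 and 45.5. All set 3 libraries were above all controls, and the log2 fold change of 0.23 ± 0.066 (SE) was called, while that of set 2 was 0.04 ± 0.066. The call was lost when any of 6 libraries was left out (shared controls 2 and 3 and each of the 4 HUWE1 set 3 libraries), with log2 fold changes of 0.17 to 0.25, and also with no filter, without mitochondrially encoded genes, without the variance trend or with only these 2 groups fitted. Without control replicates 1 and 4 together the log2 fold change was 0.32 and the gene was called. This is the gene whose start is preceded by the pair of E2F motifs shown above.

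RBL2, which encodes p130, the pocket protein most abundant in resting cells, lies on chromosome 16 (53433977 to 53491649, plus strand). Set 1 controls held 53.6, 53.2, 55.6 and 56.1 TPM and HUWE1 libraries 60.5, 55.7, 59.7 and 59.8, with 3 of 4 above all controls. The log2 fold change of 0.11 ± 0.033 (SE) was called, and the call was lost without any 1 of control replicates 1 or 2 or HUWE1 replicates 1, 3 or 4 (0.09 to 0.10), with no filter, or without the variance trend. In the second table controls were at 52.0, 54.1, 54.3 and 54.4 TPM, set 2 at 57.3, 51.7, 53.9 and 56.1, and set 3 at 57.3, 55.5, 58.7 and 58.2. Set 3 did not overlap its controls but its log2 fold change of 0.09 ± 0.040 (SE) was not called, and set 2 overlapped them (0.03 ± 0.040).

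Summed RNA of the 3 pocket proteins was 107.8 ± 4.05 TPM in the set 1 controls and 115.3 ± 3.56 in HUWE1 set 1, and 122.3 ± 4.91, 126.8 ± 8.51 and 139.9 ± 5.74 TPM in the shared controls, set 2 and set 3 (SD, n = 4). The lowest set 3 library (131.9 TPM) was above the highest control (128.8 TPM). RBL2 gave 43.9% ± 1.46 of this sum in the shared controls and 41.1% ± 0.683 in set 3, without overlap, and RB1 gave 24.7% ± 2.70 and 26.6% ± 1.56, with overlap. In set 1 the makeup was alike in both groups: RB1 held 15.7% and 14.8%, RBL1 33.6% and 34.1%, and RBL2 50.7% and 51.1%.

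The comparison of set 3 with set 2, both HUWE1 siRNA, was not named in the rule for choosing the genes and was tested. It is the difference of 2 contrasts that were in view, on the same libraries, so its tests are not independent of the choice. Limma called 0 of 8, where 0.309% of 15860 genes were called higher and 0.208% lower. An unadjusted p under 0.05 was found for 2 of the 8 genes and for 2507 of the 15860. Of all called genes 59.8% were higher in set 3, and 49.4% after median-of-ratios scaling. CCND1 was higher in set 3 in 4 of 4 libraries, with a log2 difference of 0.27 (95% interval 0.13 to 0.41; limma adjusted p = 0.0880 over all genes). An exact permutation test (two-sided, 4 libraries against 4) gave p = 0.0286, the smallest it allows, and 0.114 after adjustment over the 8 genes. RBL1 was likewise higher in 4 of 4 libraries, by 0.19 (0.05 to 0.34; limma adjusted p = 0.194), with the same exact permutation p of 0.0286, adjusted to 0.114. For the other 6 genes the exact permutation p lay between 0.114 and 0.943.

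The intervals of those 6 bound what set 3 and set 2 could differ by. For CDK4 the log2 difference was -0.01 (-0.09 to 0.08), for CDK6 0.01 (-0.13 to 0.14) and for CCND2 0.02 (-0.13 to 0.17). CCND3 was at 0.09 (-0.03 to 0.21), RBL2 at 0.07 (-0.02 to 0.16) and RB1 at 0.19 (-0.04 to 0.41), the widest of all. As shares, CCND1 held 2.84 percentage points more of the D-type cyclin sum in set 3 than in set 2 and RBL1 1.25 points more of the RB family sum, each with an exact permutation p of 0.0286 and 0.1 after adjustment over 7 shares. None of these differences passed after adjustment.

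Genes around the 8 in the same pathway were counted from 7 lists with 82 entries, by the same fits. In set 1, 4 of 81 tested entries were called higher and 29 lower, beside 12.3% and 17.9% of all genes. In set 2, 0 of 80 were called by limma, with 4 at an unadjusted p under 0.05, beside 1401 of 15860 genes. In set 3, 10 of 80 were higher and 1 lower, beside 7.45% and 4.15% of all genes. Without control replicates 1 and 4 these were 19 and 3, but calls over all genes also rose, from 1839 to 3245. All 11 genes called in set 3 were called without those libraries too. Members of a list are regulated together and are not replicates, and the lists were chosen with earlier results known.

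**Figure D5:**
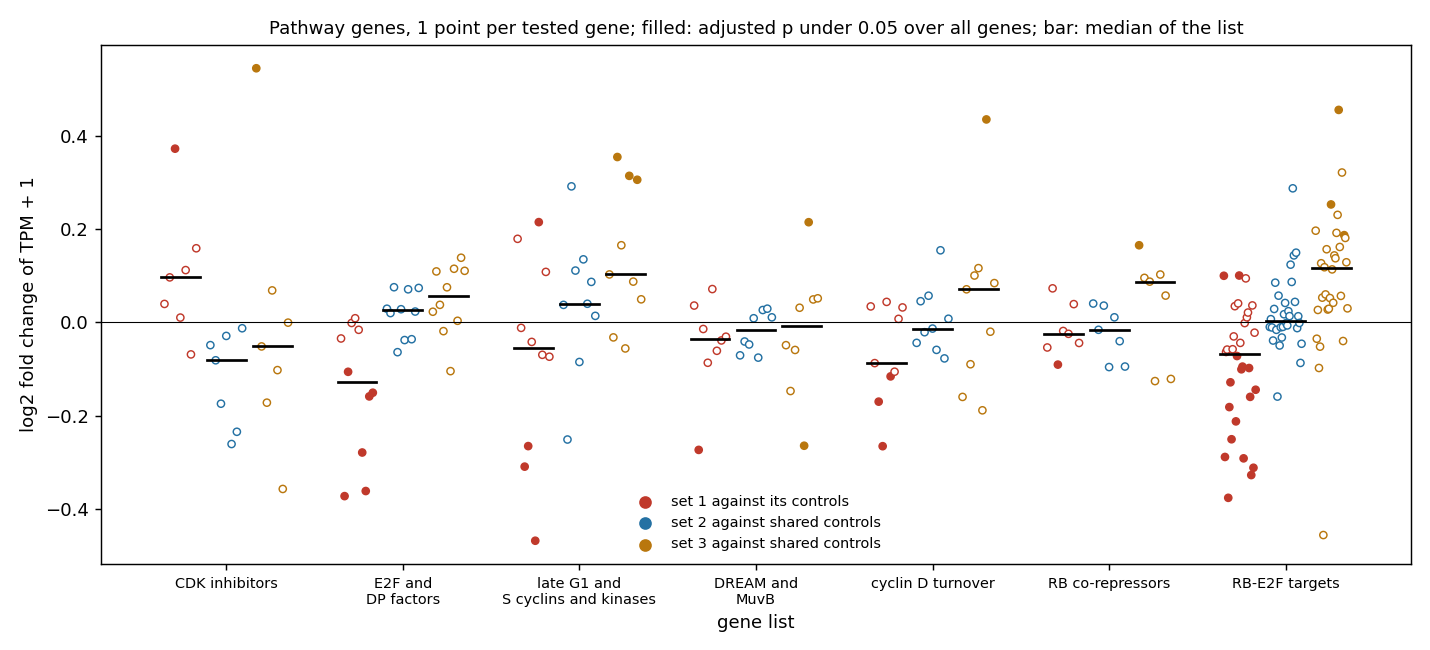
Log2 fold change of TPM + 1 (y axis) for each tested gene of 7 lists (x axis) in sets 1, 2 and 3 against their controls. Filled points have an adjusted p under 0.05 over all genes and bars are list medians. In set 1 the filled points of the E2F and DP factors are all below 0, in set 2 no point is filled, and in set 3 the highest point is CDKN1A at 0.55.

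Among the CDK inhibitors, which hold cyclin-dependent kinases in check, a different gene was called in sets 1 and 3. CDKN1A, which encodes p21, was at 46.1, 40.9, 45.7 and 43.7 TPM in the shared controls, at 41.7, 42.3, 42.7 and 43.5 in set 2, and at 67.9, 66.4, 62.3 and 62.4 in set 3. It rose in set 3 by 0.55 ± 0.046 (log2, SE) and was higher in set 3 than in set 2 by 0.59 (limma adjusted p = 2.40e-04, 4 of 4 libraries), while its log2 fold change was 0.04 in set 1 and -0.05 in set 2. CDKN1C, which encodes p57, rose in set 1, from 8.84, 7.72, 9.03 and 8.25 TPM to 10.3, 11.2, 10.3 and 13.3, by 0.37 ± 0.079 (log2, SE), and had log2 fold changes of -0.17 in both other sets. The other 5 were not called in any set. CDKN1B, which encodes p27, was at 74.6 TPM in the set 1 controls and 79.7 in HUWE1 set 1, and at 128.6, 121.6 and 124.0 TPM in the shared controls, set 2 and set 3. The INK4 genes, whose products bind CDK4 and CDK6 directly, had log2 fold changes in sets 1, 2 and 3 of 0.01, -0.03 and 0.07 for CDKN2A, 0.11, -0.26 and -0.10 for CDKN2B, -0.07, -0.23 and -0.36 for CDKN2C, and 0.16, -0.01 and 0.00 for CDKN2D. The set 3 value of CDKN2C was called without control replicates 1 and 4.

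E2F factors and their DP partners, which the pocket proteins bind, were lower or not called in set 1. Of 10 tested, 6 fell and 0 rose, where 17.9% of all genes were called lower and 12.3% higher. The median log2 fold change was -0.13 beside -0.01 over all genes. E2F2 fell from 49.6 ± 1.95 to 38.1 ± 1.52 TPM (-0.37), E2F8 from 18.4 ± 0.596 to 14.1 ± 0.675 (-0.36) and E2F7 from 35.7 ± 1.03 to 29.2 ± 0.507 (-0.28) (SD, n = 4); E2F7 and E2F8 are repressors of the family. In sets 2 and 3 limma called 0 of 10, with medians of 0.03 and 0.06. Without control replicates 1 and 4, the DP gene TFDP1 was called higher in set 3 (0.15).

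The next group holds cyclins and kinases listed for late G1 and S phase, together with genes of the CDK-activating kinase. Over all genes, 17.9% were called lower and 12.3% higher in set 1, and 4.15% lower and 7.45% higher in set 3. In set 1, 3 of 10 fell: the phosphatase CDC25A (158.1 ± 4.91 to 114.2 ± 8.53 TPM; -0.47) and the cyclin E genes CCNE1 (-0.31) and CCNE2 (-0.27), while the mitotic kinase CDK1 rose (0.22). In set 3, 3 of 9 rose and 0 fell: CCNE2 (30.0 ± 2.64 to 38.6 ± 3.12 TPM; 0.35), CDK1 (0.31) and the CDK-activating kinase CDK7 (0.31) (log2 fold changes; SD, n = 4). CCNE2 was at 39.1, 33.2, 37.5 and 37.7 TPM in set 2, against 27.3, 28.7, 30.4 and 33.5 in the shared controls, a log2 fold change of 0.29 that was not called.

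The list of RB-E2F targets holds 30 genes, most but not all of them genes of DNA replication. In set 1, 15 fell and 2 rose, where 17.9% of all genes were called lower and 12.3% higher. The median log2 fold change of the list was -0.07. The 3 lower genes with the smallest p were CLSPN, which encodes the checkpoint mediator claspin (-0.38), the ribonucleotide reductase subunit RRM2 (-0.33) and the helicase subunit MCM3 (-0.21), while CDC45 and MCM6, also of the replicative helicase, rose by 0.10 each. In set 3, 3 of the 30 rose and 0 fell: the primase subunit PRIM1 (0.46), MCM6 (0.25) and the thymidine kinase TK1 (0.19), with a list median of 0.12 beside 0.01 over all genes. Over all genes, 7.45% were called higher and 4.15% lower in set 3. The count of list genes called higher was 11 without control replicates 1 and 4, 15 without replicate 4 alone and 0 without replicate 3. Calls over all genes rose from 1839 to 3245 in the first of these fits and to 5878 in the second. In the first, FEN1, another gene of the list, was called lower (-0.53). With all controls it was at -0.46 and not called. Set 3 exceeded set 2 in UHRF1, a reader of DNA methylation, by 0.22 (limma adjusted p = 0.0450), with 64.8, 60.2, 62.9 and 61.6 TPM in set 2 and 74.2, 70.8, 71.3 and 73.9 in set 3.

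Of the remaining lists few genes were called. Over all genes, 17.9% were called lower and 12.3% higher in set 1, and 4.15% lower and 7.45% higher in set 3. In the list of DREAM and MuvB genes, LIN52 fell in set 1 (-0.27), and in set 3 MYBL2 rose (0.22) and MYBL1 fell (-0.26), out of 8. Of 9 tested genes of D-type cyclin turnover, the cullin genes CUL4A (-0.27) and CUL1 (-0.17) and the F-box gene FBXO31 (-0.12) fell in set 1, and FBXO4, another F-box gene, rose in set 3 (0.44). AMBRA1, the substrate receptor that targets all D-type cyclins, was not called in any set (0.03, -0.04 and -0.16). Of 7 co-repressors of RB, the histone deacetylase HDAC2 fell in set 1 (-0.09) and the DNA methyltransferase DNMT1 rose in set 3 (0.17).

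Genes that overlap or lie next to the 8 in GENCODE release 29 were checked, since reads can be split between overlapping genes. The library kit keeps strand, per the labels, but the sources used here do not say how strand was used in counting. Of 43 such genes 38 were in the tables; in set 1, 3 of 20 tested were called higher and 9 lower (12.3% and 17.9% of all genes), and in set 3, 2 of 22 higher and 2 lower (7.45% and 4.15%). TSPAN31, a tetraspanin gene on the opposite strand that overlaps exons of CDK4, rose in set 1 from 15.9 to 19.8 TPM (log2 fold change 0.29), where CDK4 was lower, and by 0.31 in set 3. MARCH9, also on the opposite strand and overlapping exons of CDK4, fell in set 1 from 24.8 to 21.9 TPM (-0.17). It was not called in set 3 (-0.14). AC008012.1, a same-strand gene model that covers all of CCND2, fell in set 1 from 12.1 to 9.78 TPM (-0.28). How reads were shared between these genes and CDK4 or CCND2 was not tested. LTO1, opposite to CCND1 and overlapping its last part, was not called in any set (0.02, -0.003 and -0.07).

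Among the other neighbours, BYSL, a ribosome assembly gene beside CCND3, was at 218.2 TPM in the set 1 controls and fell by 0.26 (log2); in set 3 it was at -0.40, not called, and was called without control replicates 1 and 4 (-0.43). ITM2B, next to RB1, rose in sets 1 (0.32) and 3 (0.23), and CYP27B1, the vitamin D hydroxylase gene next to CDK4, fell in sets 1 (-0.43) and 3 (-0.55). AKTIP, which overlaps RBL2, fell in set 3 (-0.18, not called without control replicates 1 and 4) and was lower in set 3 than in set 2 by 0.28 on the log2 scale (limma adjusted p = 0.0458), where RBL2 was 0.07 higher.

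For each of the 8 genes the 3 most similar profiles were sought among 11468 genes, by Pearson's r of log2(TPM + 1) over the 20 libraries after each table was centred on its mean. These r describe likeness only; the libraries share groups and controls. RB1 had the closest companions, with r of 0.97 for SLC30A9, 0.97 for UCHL5 and 0.96 for GPD2, and all 3 were close to it in each table apart. RBL2 was most like ATP6V1C1 (0.93), IBTK (0.93) and EPB41L2 (0.91), and RBL1 most like HNRNPH2 (0.89), ZC3H12C (0.88) and STAG1 (0.88).

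CDK6 was most like CCDC186 (0.93), PIKFYVE (0.92) and VPS13A (0.91), and CCND1 most like PLCG2 (0.91), DOP1B (0.91) and EPAS1 (0.90), which encodes the hypoxia-inducible factor HIF-2 alpha. For CDK4 the nearest were GAMT (0.86), TIGD6 (0.85) and ADCK2 (0.84). The closest to CCND2 was SRRM1 (0.86), whose r was 0.95 over the 12 libraries of the second table but 0.10 over the 8 of the first. CCND3 had the least close companions, CARM1 (0.76), FXR2 (0.72) and TOMM40 (0.71). None of the 8 genes was among another's 3 nearest.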

How the data were processed

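RNA was sequenced from 20 libraries of HEK293T cells with a stranded mRNA kit, per the labels' protocols. The protocol text names siRNA targets other than HUWE1, while the sample descriptions name only HUWE1 and non-targeting siRNA. The sources used here do not explain this difference. The authors deposited TPM values in 2 tables of 45372 symbols. Per the submitters' processing notes the genome was hg38; the aligner and counter are not named in them. TPM keeps no depth, so precision rests on the 4 replicates of a group. The test was limma 3.58.1 (R 4.3.3) on log2(TPM + 1) for genes that reached 1 TPM in 4 or more libraries of their table, with a trended variance and Benjamini-Hochberg adjustment over all genes, after the procedure had been tested on simulated data. Fold changes on this scale understate low genes. Set 1 was fitted on 8 libraries and the second table on 12. Exact permutation tests were two-sided.

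The genes and lists were chosen with earlier results of these data known. Named are all 8 genes, HUWE1, all CDK inhibitors, up to 3 called genes per list, set and direction by smallest p with a group mean of 5 TPM or more, the 3 most similar profiles, and overlapping or nearest genes. AMBRA1 and CCNE2 in set 2 were named after their values were seen. Marker lists were those of epithelial and neuronal, kidney, fibroblast and blood genes. GENCODE release 29 held 41180 of the symbols. Alternatives were another pseudocount of 0.1, no filter, a mean of 5 TPM, median-of-ratios and quantile scaling, removal of mitochondrially encoded genes, no variance trend, robust variance, a minimum log2 fold change of 1, a replicate block, a fit of only the 2 groups compared, and leaving out libraries.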

Additional observations from a re-analysis of the deposited data

Results flagged for a closer look

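Among 40 groups of 4 TPM values, 6 held a library far from the other 3. The rule used flags about 1 in 20 groups when values are normal and independent. Here the groups are 8 genes in the same 20 libraries, so they are not independent and the count was not tested against that rate. CCND1 had its lowest library at 17.2 TPM in HUWE1 set 3 and at 8.20 TPM in the set 1 controls, and CCND3 its highest at 16.5 TPM in HUWE1 set 1, whose other libraries lay close together. RBL1 had its lowest at 44.1 TPM in HUWE1 set 3, and RBL2 at 55.7 TPM in HUWE1 set 1 and at 52.0 TPM in the shared controls. The CCND1 and RBL1 values of HUWE1 set 3 come from the same library, replicate 2.

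Set 3 differed from set 2 by limma in CDKN1A (log2 difference 0.59, adjusted p = 2.40e-04), UHRF1 (0.22, adjusted p = 0.0450) and AKTIP, the neighbour of RBL2 (-0.28, adjusted p = 0.0458).

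Directions were compared in 105 combinations of a gene and a pair of sets. In 15 of them, every library of 1 set lay above its control mean and every library of the other below. The genes were the D-type cyclins, their kinases, the pocket proteins and the called list genes named above. Most were thus chosen because they differed in some comparison, and no share over all genes is given beside the 15. These differences between sets were not tested, except where limma compared sets 3 and 2. For CCND1 the log2 fold changes were 0.54 in set 1 and -0.16 in set 2. Those of CCNE2 in sets 1, 2 and 3 were -0.27, 0.29 and 0.35, those of CDKN1C 0.37, -0.17 and -0.17, and those of FBXO4 -0.11, 0.15 and 0.44. CDKN1A was at -0.049 in set 2 and 0.55 in set 3, and UHRF1 at -0.087 and 0.13. Between sets 1 and 3 the values were -0.27 and 0.10 for CUL4A, -0.37 and 0.11 for E2F2, -0.28 and 0.12 for E2F7, and -0.090 and 0.088 for HDAC2. MCM3 was at -0.21 in set 1, -0.032 in set 2 and 0.028 in set 3.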

How the results depend on the processing

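The direction of every called fold change of the 8 genes was kept under all alternatives run. Of 616 recomputed values 586 kept their side of the threshold, 25 fell below it, 5 passed it and 0 of the called ones reversed. Most of the 616 belong to fold changes that were not called, so they say little about how stable a call was. The 25 all came from called values. The call was lost for RBL1 in set 3 in 11 of 20 alternatives. In set 1 it was lost for RBL2 in 8 of 18, for CDK6 in 4 of 18, and for CCND1 and CDK4 in 1 of 18 each. Uncalled values near 0 changed sign in places, such as RB1 in set 1 (-0.03 to 0.05 with 1 library left out). In set 1, 4 of the 8 genes were called, 2 with no filter, 0 at a log2 fold change of 1, and 2 to 6 with 1 library left out (2 without HUWE1 replicate 3 or 4). RBL1 was called in set 1 after median-of-ratios scaling (0.13), after quantile normalization (0.13) and without control replicate 3 (0.15), and CCND3 without control replicate 3 (-0.11). In set 3, 1 was called, 0 with no filter, without mitochondrially encoded genes, with no variance trend, with only the 2 groups compared or at a log2 fold change of 1, and 0 to 2 with 1 library left out. Over all genes, set 1 called 4863 (3640 to 4675 with a library left out), set 2 called 2 (1 to 6 over alternatives at any fold), set 3 called 1839 (698 with no filter, 360 with only the 2 groups compared, 163 to 5878 with a library left out, the highest without control replicate 4) and set 3 against set 2 called 82 (42, 335 and 20 to 68). The higher share of called genes in set 3 was 64.2%, against 48.1% after median-of-ratios scaling, 52.4% after quantile normalization and 44.4% when mitochondrially encoded genes were removed; in set 3 against set 2 it was 59.8%, 49.4%, 52.8% and 49.3%.

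Alternatives for the pathway lists were chosen after seeing the data. At a log2 fold change of 1, 0 were called among the E2F and DP factors lower in set 1 and among the RB-E2F targets in either direction. The 2 targets higher in set 1 became 1 with no variance trend and 1 to 2 with a library left out. The 3 targets higher in set 3 became 1 with no filter, 6 at a mean of 5 TPM, 5 with quantile normalization, 0 with only the 2 groups compared, 11 without control replicates 1 and 4, and 0 to 15 with a library left out. Over all genes, the fit without control replicates 1 and 4 called 3245 in set 3, against 1839 with them. The lower counts of set 1 kept 6 of the E2F and DP factors and 11 to 14 targets with a library left out.

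With the replicate number as a block, 4 of the 8 genes were called in set 1, 0 in set 2, 1 in set 3 and 0 in set 3 against set 2, as without it, and 1 target was higher in set 3; over all genes the block gave 4597, 1, 693 and 17 calls. The numbers are not known to pair samples: correlations of same-numbered deviations from group means ran from 0.000215 to 0.052 in set 1, from -0.481 to 0.039 between the shared controls and set 2, from -0.027 to 0.407 between the shared controls and set 3, and from -0.249 to 0.110 between sets 2 and 3. Depth is unknown in these tables, so counting error could not be separated from the spread of 4 libraries.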
